A study of Homo sapiens with 2 samples.

Results

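A set of 8 genes of programmed cell death was followed through 2 single-cell RNA libraries of human colon organoids: the caspase genes CASP1, CASP4, CASP8 and CASP10, the gasdermin genes GSDMB and GSDMD, and the necroptosis genes MLKL and RIPK3. They were chosen by gene symbol, and all 8 were found among the 36601 genes listed in each library. The organoids had been grown from 1383D6, a line of human induced pluripotent stem (iPS) cells. The library CNT came from organoids without cytokines. The library 3CK came from organoids given TNF-α, IFN-γ and IL-1β together for 8 days. Both groups shared the culture that made the organoids: Activin A, then FGF2, then Matrigel with EGF, forskolin, PD98059, 5-Aza-2'-Deoxycytidine and A-83 (as the labels write it) among its agents. With a single cell line and 1 library per group, no difference below has a replicate check, and no test between the treatments was possible. Intervals are 95% intervals that cover counting error only.

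Caspases are proteases that carry out cell death. Inflammatory caspases, encoded by CASP1 and CASP4, are switched on by inflammasomes or by bacterial lipopolysaccharide, cut gasdermin D, and so open pores in the cell membrane, a lytic death called pyroptosis. Initiator caspases, encoded by CASP8 and CASP10, are recruited to death receptors such as FAS and start apoptosis. When caspase activity is blocked, the kinase RIPK3 can phosphorylate MLKL, which then breaches the membrane, a death called necroptosis. In the gut, these pathways are known for removing infected epithelial cells and for their part in inflammatory bowel disease.

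CNT held 3257 deposited barcodes with 105314879 unique molecular identifiers (UMIs, counted RNA molecules), and 3CK held 1641 with 94887438. Barcodes were kept if they showed 500 genes or more and if mitochondrial (MT-) genes made up no more than 20% of their UMIs, and likely doublets were removed, which left 2487 CNT and 1398 3CK cells. The median depth was 28895 UMIs per kept cell in CNT and 62746 in 3CK. Epithelial cells were kept cells with at least 2 UMIs of EPCAM per 10000, and they numbered 1655 in CNT and 1016 in 3CK. Mesenchymal cells had at least 5 UMIs of COL1A1, COL1A2 and COL3A1 together per 10000 and less than 1 of EPCAM, and they numbered 577 and 124. These classes are ranges cut from per-cell values, not cell types, and 255 CNT and 258 3CK cells fell in neither. Of the epithelial cells, 167 in CNT and 150 in 3CK lay between 2 and 4 EPCAM UMIs per 10000. The 11 epithelial markers that the class rule did not use were, at their median, 9.25-fold higher in epithelial than in mesenchymal cells of CNT and 22.4-fold higher in 3CK. KRT8 was 1.03-fold lower and KRT18 1.14-fold lower in the epithelial cells of CNT, so neither of these keratins separated the classes. Barcodes with over 20% MT- UMIs, called high-MT here, numbered 644 in CNT and 227 in 3CK and were shallow, with medians of 1063 and 1889 UMIs.

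The epithelial class of these organoids also read liver-type genes. Transthyretin (TTR), a plasma carrier protein, read 64864 CPM (UMIs scaled so that all genes of a class and library sum to 1000000) in CNT epithelial cells and 19494 in 3CK. Among leukocyte markers, PTPRC, the pan-leukocyte surface phosphatase CD45, read 0.237 CPM in CNT and 0.0856 CPM in 3CK epithelial cells. In mesenchymal cells PTPRC read 0.560 CPM in CNT and 3.62 CPM in 3CK. Of 8 myeloid markers 6 in CNT and 5 in 3CK were under 1 CPM in mesenchymal cells, and FCGR3A was at 0 in both classes of both libraries. Their summed level in mesenchymal cells was 41.2 CPM in CNT and 116 CPM in 3CK. CD68, a lysosomal protein of macrophages and other cells, made 26.7 and 91.4 CPM of these sums. In epithelial cells only 3 of the 8 myeloid markers were under 1 CPM in each library. The myeloid sum there was 51.8 CPM in CNT and 63.5 CPM in 3CK, of which CD68 made 31.1 and 48.6 CPM. AIF1, a macrophage protein, read 0.712 and 11.3 CPM in mesenchymal cells and 7.01 and 2.10 CPM in epithelial cells. CD14 read 13.1 and 12.0 CPM in mesenchymal cells, and CD53, of the pan-leukocyte list, held 3 UMIs there in CNT and 12 in 3CK. The part of these markers in the mesenchymal levels below was not tested. CD3D read 124 CPM in CNT epithelial cells and 54.3 CPM in 3CK, while its partner CD3E read 0.738 and 0.314 CPM. Of 8 lymphoid markers, 5 in CNT and 6 in 3CK were under 1 CPM in epithelial cells. The summed level of the 4 pan-leukocyte markers was 167 CPM in CNT and 72.6 CPM in 3CK epithelial cells, of which LCP1 alone made 164 and 67.6 CPM.

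In epithelial cells, 7 of the 8 genes were 2-fold or more higher in 3CK, and RIPK3 was 1.49-fold higher. Of the 16830 genes that reached 1 CPM in one library or the other, 8.47% were 2-fold or more higher and 12.2% lower. The median log2 ratio of 3CK over CNT was 2.76 for the 8 genes and 0.01 for all genes. Summed over the 8 genes, the epithelial level was 82.9 CPM in CNT and 406 CPM in 3CK. Mesenchymal cells started higher and moved less: their sum went from 165 to 408 CPM, and 4 of the 8 genes passed 2-fold, against 6.04% of 17351 genes. Under TMM scaling, an alternative that sets aside extreme genes, CASP4 and CASP8 also passed 2-fold in mesenchymal cells, at log2 ratios of 1.18 and 1.02. Without TMM scaling, the median log2 ratio in mesenchymal cells was 1.18 for the 8 genes and -0.21 for all genes. The collagens that define this class were themselves lower within it in 3CK. COL1A1 read 3009 CPM in CNT and 906 CPM in 3CK, COL1A2 1537 and 604 CPM, and COL3A1 3316 and 1391 CPM. The part of this in the mesenchymal ratios was not tested. Over all kept cells 7 of 8 passed 2-fold, against 6.97% of genes.

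**Figure D1:**
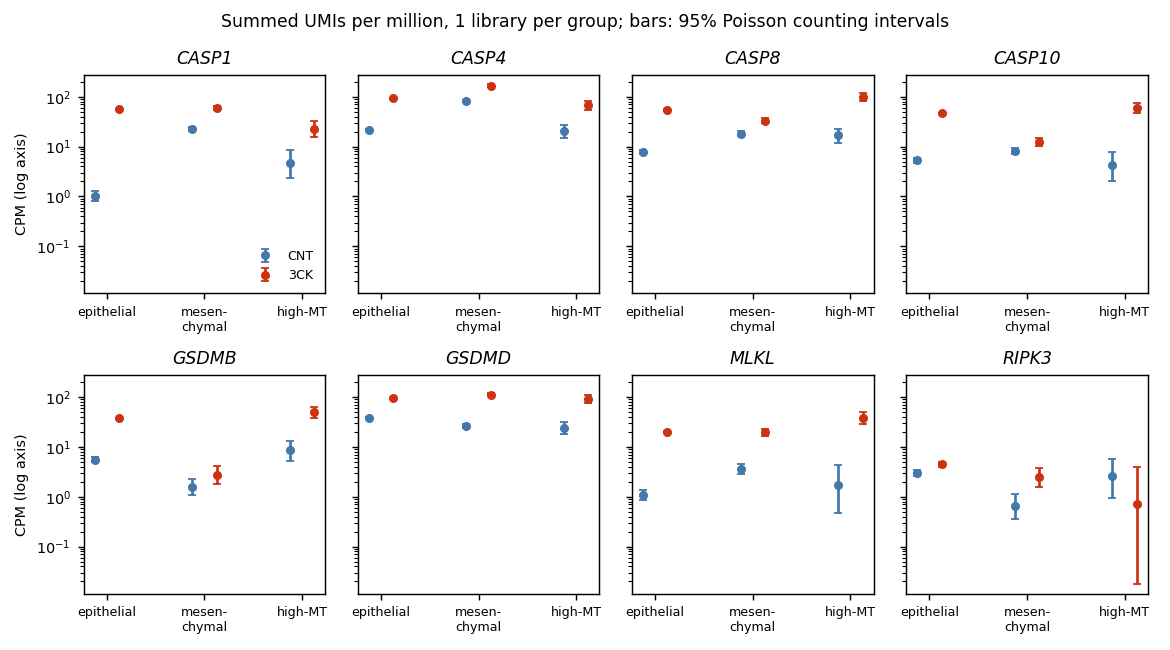
Level of each gene in CPM (log axis) in epithelial cells, mesenchymal cells and high-MT barcodes of CNT (blue) and 3CK (red), with bars for 95% Poisson counting intervals and 1 library per group. For CASP1 the epithelial points lie at 1.01 and 56.1 CPM, while the mesenchymal points lie at 22.9 and 58.6 CPM.

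**Figure D2:**
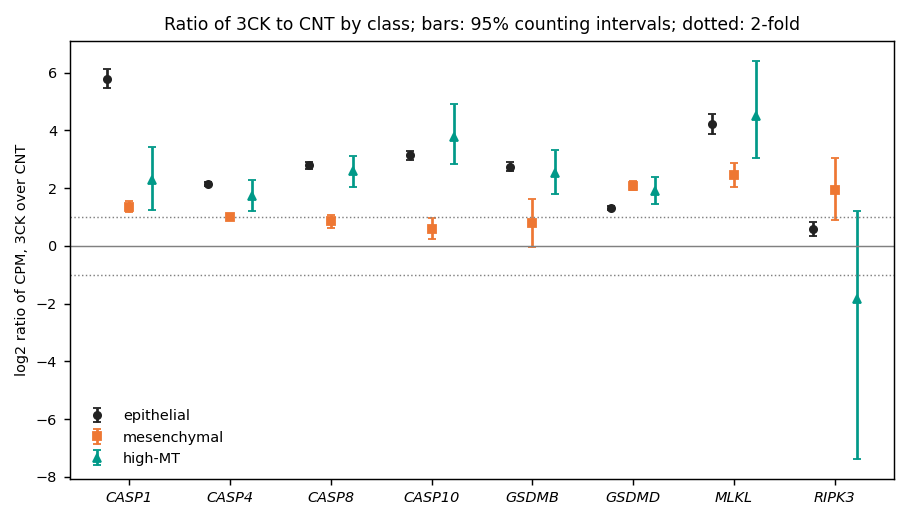
Log2 ratio of CPM, 3CK over CNT, for each gene in epithelial cells (black), mesenchymal cells (orange) and high-MT barcodes (green), with bars for 95% counting intervals and dotted lines at 2-fold. Epithelial ratios run from 0.58 for RIPK3 to 5.79 for CASP1, and the mesenchymal ratios of GSDMD and RIPK3 lie above their epithelial ones.

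CASP1 encodes the inflammasome protease that matures IL-1β and IL-18 and cuts gasdermin D (chr11:105025397-105035250, minus strand, GRCh38). It had the largest epithelial ratio of the 8. Epithelial cells held 77 CASP1 UMIs in CNT, or 1.01 CPM, and 3933 in 3CK, or 56.1 CPM. That is a log2 ratio of 5.79 with an interval of 5.46 to 6.13. Mesenchymal cells read CASP1 without cytokines, at 22.9 CPM from 450 UMIs in CNT, and at 58.6 CPM from 534 UMIs in 3CK. The mesenchymal log2 ratio was 1.36 (interval 1.17 to 1.54). So in CNT the CASP1 level was 22.6-fold higher in mesenchymal than in epithelial cells, and in 3CK the log2 ratio of epithelial over mesenchymal was -0.06 with an interval of -0.19 to 0.07.

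The few CASP1 UMIs of CNT epithelium were not spread evenly over that class. In CNT, 495 of the 1655 epithelial cells also carried at least 5 collagen UMIs per 10000, and these cells were shallow, with a median of 1077 UMIs. They held 49 of the 77 CASP1 UMIs, at 7.01 CPM. The 861 epithelial cells with under 1 collagen UMI per 10000 held 18, at 0.329 CPM (interval 0.195 to 0.520). In 3CK the corresponding 893 cells with low collagen read CASP1 at 57.6 CPM, so over these cells alone the log2 ratio was 7.45. The share of mesenchymal RNA in such mixed barcodes was not tested. CASP1 also shares near-identical sequence with CARD16, a CARD-only relative on the same chromosome, and reads could be split between them by the authors' counting. CARD16 read 7.04 CPM in CNT and 113 CPM in 3CK epithelial cells, a log2 ratio of 4.01. In mesenchymal cells CARD16 read 66.2 and 81.4 CPM, a log2 ratio of 0.30.

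CASP4 encodes the protease that binds bacterial lipopolysaccharide in the cytosol (chr11:104942866-104969366, minus strand). It was read in every class without cytokines. The epithelial level was 21.1 CPM in CNT and 93.2 CPM in 3CK, a log2 ratio of 2.14 (2.06 to 2.22). The mesenchymal level was 83.8 CPM in CNT and 168 CPM in 3CK, a log2 ratio of 1.00 (0.90 to 1.10) that lay just under 2-fold before rounding. CASP4 stayed higher in mesenchymal than in epithelial cells in both libraries, with log2 ratios of epithelial over mesenchymal of -1.99 in CNT and -0.85 in 3CK. CASP5, the closest relative of CASP4, read 1.57 CPM in CNT and 15.0 CPM in 3CK epithelial cells. As with CASP1 and CARD16, reads of this pair could be split.

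CASP8 encodes the apical death receptor protease, whose activity also holds necroptosis in check (chr2:201233443-201361836, plus strand, overlapped on the opposite strand by FLACC1 and on the same strand by an unnamed gene of the annotation). Epithelial cells read it at 7.86 CPM in CNT, from 596 UMIs, and at 54.2 CPM in 3CK, from 3799 UMIs. The log2 ratio was 2.79 (2.66 to 2.91). Mesenchymal cells read 18.2 CPM in CNT and 32.7 CPM in 3CK, a log2 ratio of 0.84 (0.62 to 1.07). Over the whole classes the order was therefore opposite in the 2 libraries: the log2 ratio of epithelial over mesenchymal was -1.21 in CNT and 0.73 in 3CK. The CNT order did not hold in every TTR range. The 1464 CNT epithelial cells with at least 100 TTR UMIs per 10000 read CASP8 at 6.23 CPM. The 169 with 10 to 100 read 17.6 CPM, and the 22 with under 10 read 25.9 CPM. In 3CK these ranges read 35.4, 75.8 and 84.4 CPM.

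CASP10, the neighbouring gene of the same family on chromosome 2, encodes another initiator caspase that binds the same death receptor adapter (chr2:201182872-201229428, plus strand). It showed the same exchange of order over the whole classes. Epithelial cells read 5.27 CPM in CNT and 46.3 CPM in 3CK, a log2 ratio of 3.14 (2.99 to 3.29). Mesenchymal cells read 8.19 CPM in CNT, from 161 UMIs, and 12.4 CPM in 3CK, from 113 UMIs, a log2 ratio of 0.60 (0.24 to 0.95). CASP10 was thus 1.55-fold higher in mesenchymal cells in CNT and 3.74-fold higher in epithelial cells in 3CK. In CNT it read 4.69 CPM in epithelial cells with at least 100 TTR UMIs per 10000. Those with 10 to 100 read 10.1 CPM (7.91 to 12.7), and those with under 10 read 7.40 CPM (4.23 to 12.0).

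Promoter sequence was at hand for CASP4, CASP8 and MLKL from RefSeq (GRCh38.p14), as windows of 250 bases before to 50 after each listed start. Because the 3 cytokines signal through interferon and NF-kB factors, the windows were searched on both strands for the interferon-stimulated response element (GAAA, 2 free bases, GAAA), the gamma-activated site (TTCNNNGAA) and the NF-kB site (GGG, 3 free bases, TTCC). The motifs can overlap one another. Of 35116 promoter windows of this length, 3.57% held the first, 7.66% the second and 6.52% the third. The most upstream of 3 CASP8 windows held the first motif, on the opposite strand and beginning 3 bases before the start, and the second motif, beginning 200 bases before the start. Its sequence is shown with these matches in capitals, beside the MLKL window, in which none of the 3 was found although MLKL had the second largest epithelial ratio of the 8 genes. None was found in the CASP4 window or in the other CASP8 windows either. A match is a description of letters, not a site shown to be used.
CASP8, chr2:201233213-201233512, plus strand: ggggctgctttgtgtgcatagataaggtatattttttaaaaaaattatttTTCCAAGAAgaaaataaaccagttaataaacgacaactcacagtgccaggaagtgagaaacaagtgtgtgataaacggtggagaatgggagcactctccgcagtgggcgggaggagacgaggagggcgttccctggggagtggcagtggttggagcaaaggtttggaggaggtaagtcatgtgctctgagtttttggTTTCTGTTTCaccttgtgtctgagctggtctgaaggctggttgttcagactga
MLKL, chr16:74700813-74701112, minus strand: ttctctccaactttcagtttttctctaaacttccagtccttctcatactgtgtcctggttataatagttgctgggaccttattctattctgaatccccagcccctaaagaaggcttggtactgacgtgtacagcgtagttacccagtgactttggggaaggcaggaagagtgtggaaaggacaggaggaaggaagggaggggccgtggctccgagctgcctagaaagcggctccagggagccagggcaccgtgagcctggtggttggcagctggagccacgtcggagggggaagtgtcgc

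GSDMB encodes a gasdermin known from gut and airway epithelium that granzyme A can cleave (chr17:39904595-39919854, minus strand). It had the largest epithelial excess of the 8 in 3CK, while in CNT that of RIPK3, from 13 mesenchymal UMIs, was larger. Epithelial cells read 5.58 CPM in CNT, from 423 UMIs, and 37.3 CPM in 3CK, from 2617 UMIs, a log2 ratio of 2.74 (2.59 to 2.90). Mesenchymal cells held 31 UMIs in CNT, or 1.58 CPM, and 25 in 3CK, or 2.74 CPM. The mesenchymal log2 ratio of 0.80 had an interval of -0.02 to 1.61, so no difference was resolved there at this depth, and it was -0.76 with each cell given equal weight. GSDMB was 3.53-fold higher in epithelial than in mesenchymal cells in CNT and 13.6-fold higher in 3CK. For RIPK3 these values were 4.56-fold and 1.79-fold.

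GSDMD encodes the pore-forming substrate of the inflammatory caspases. It was read at 37.9 CPM in epithelial and 26.3 CPM in mesenchymal cells of CNT. In 3CK the levels were 94.8 and 111 CPM. Unlike the caspases, GSDMD had the larger ratio in mesenchymal cells, with a log2 ratio of 2.09 (1.93 to 2.24) against 1.32 (1.26 to 1.38) in epithelial cells.

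MLKL encodes the membrane-breaching effector of necroptosis (chr16:74671855-74700960, minus strand). Epithelial cells held 82 MLKL UMIs in CNT, or 1.08 CPM, and 1403 in 3CK, or 20.0 CPM. The log2 ratio of 4.21 (3.89 to 4.55) was second to that of CASP1. Mesenchymal cells read 3.61 CPM in CNT and 19.6 CPM in 3CK, a log2 ratio of 2.44 (2.04 to 2.86). The 2 classes, which stood apart in CNT with a log2 ratio of epithelial over mesenchymal of -1.74, stood close in 3CK, where that ratio was 0.03 (-0.20 to 0.26).

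RIPK3, the kinase that acts on MLKL, was the exception among the 8 (chr14:24336025-24340022, minus strand, overlapped on the same strand by an unnamed gene of the annotation). Epithelial cells held 229 UMIs in CNT, or 3.02 CPM, and 316 in 3CK, or 4.51 CPM, a log2 ratio of 0.58 (0.33 to 0.83). Mesenchymal cells held only 13 UMIs in CNT, or 0.661 CPM, and 23 in 3CK, or 2.52 CPM, a log2 ratio of 1.93 (0.89 to 3.03). RIPK3 and GSDMB were the 2 of 8 genes that were 2-fold or more higher in epithelial than in mesenchymal cells of CNT, against 15.2% of genes. In 3CK these were CASP10 and GSDMB, against 16.8% of genes. In the other direction, CASP1, CASP4, CASP8 and MLKL were 2-fold or more higher in mesenchymal cells of CNT, against 26.1% of genes, and none of the 8 was in 3CK, against 19% of genes. With stricter class thresholds (EPCAM at least 4, collagens at least 20) CASP4 passed there too, at a log2 ratio of -1.02, and RIPK3 passed toward epithelial cells, at 1.14.

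The share of cells with a read of each gene was compared after every cell was thinned to 10000 UMIs, since the libraries differ in depth. This left out 644 of 1655 CNT and 286 of 1016 3CK epithelial cells that were shallower. CASP1 was seen in 0.692% of 1011 CNT epithelial cells (Clopper-Pearson interval 0.279 to 1.42%) and in 34.8% of 730 in 3CK (31.3 to 38.4%), or 2.54% and 60.3% unthinned. CASP8 was seen in 7.91% and 37.1% of thinned epithelial cells, or 23.4% and 69.4% unthinned. MLKL was seen in 0.396% and 17.8%, or 4.29% and 51.7% unthinned. For CASP1 and MLKL the CNT share was under 1% at this depth, and 1.06% and 1.80% at 20000 UMIs.

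CASP4 was seen in 15.6% of thinned CNT and 39.3% of thinned 3CK epithelial cells, or 33.5% and 63.4% unthinned. CASP10 was seen in 4.95% and 34.4%, or 17.0% and 65.4% unthinned. GSDMB was seen in 6.82% and 30.8%, or 16.2% and 59.6% unthinned. The other gasdermin, GSDMD, was seen in 30.0% and 59.2%, or 51.5% and 73.3% unthinned. Each of these 4 genes was thus seen in more of the 3CK than of the CNT cells at equal depth. RIPK3 was seen in 3.17% (2.18 to 4.44%) and 4.93% (3.48 to 6.76%), with overlapping intervals, or in 10.7% and 21.9% unthinned. The interval in 3CK lay above that in CNT for 7 of the 8 genes, as it did for 16.7% of all genes that reached 1 CPM in this class. It lay below for none of the 8 and for 15.6% of genes.

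In thinned mesenchymal cells, 311 in CNT and 106 in 3CK, the interval lay above for 5 of the 8 genes and for 3.53% of genes, and below for none of the 8 and for 3.36% of genes. The 5 were CASP1, CASP4, CASP8, GSDMD and MLKL. CASP8, at 15.8% and 31.1%, or 32.1% and 73.4% unthinned, passed narrowly: its intervals overlapped at 5000 and at 20000 UMIs, where the count was 4. CASP4 was seen in 41.8% of these cells in CNT and 76.4% in 3CK, or 49.6% and 88.7% unthinned. GSDMD was seen in 19.9% and 60.4%, or 35.5% and 80.6% unthinned. GSDMB was seen in 3.22% (1.55 to 5.83%) and 2.83% (0.588 to 8.05%), or 4.85% and 11.3% unthinned. The part of free epithelial RNA in this low mesenchymal share was not tested.

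**Figure D3:**
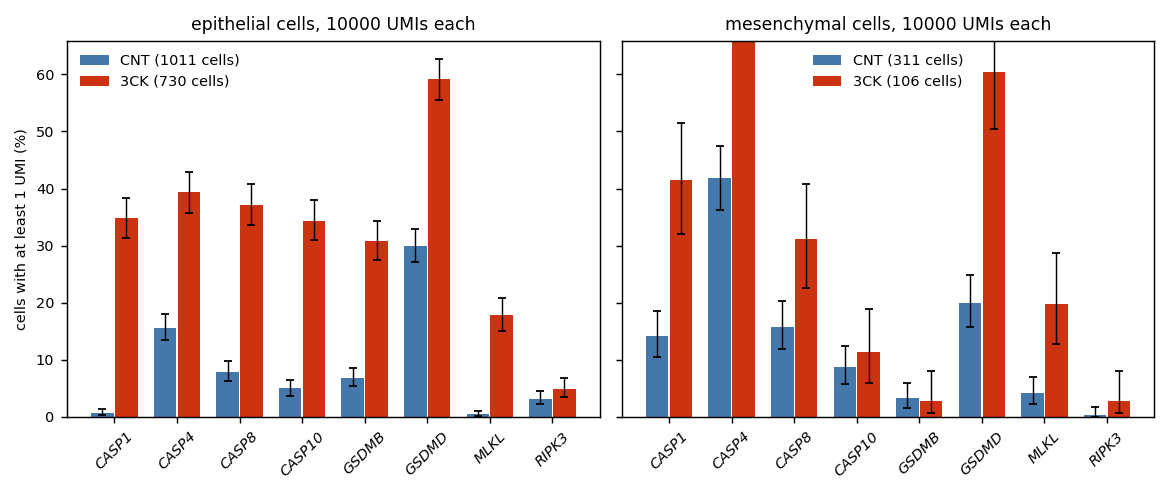
Share of epithelial (left) and mesenchymal (right) cells with at least 1 UMI of each gene after thinning each cell to 10000 UMIs, in CNT (blue) and 3CK (red), with bars for exact 95% binomial intervals. Among epithelial cells CASP1 stands at 0.692% in CNT and 34.8% in 3CK, while the intervals of RIPK3 overlap.

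Single epithelial cells read several of the 8 genes at once in 3CK. At 10000 UMIs, CNT epithelial cells held a mean of 0.695 of the 8 genes and 3CK epithelial cells 2.58. The share with 3 or more of the genes was 2.37% in CNT and 50.5% in 3CK, and the share with none was 46.6% and 4.66%. Without thinning the means were 1.59 and 4.65. Each mean is the sum of the shares of the single genes and is fixed by them. Whether the genes met in the same cells more often than their shares alone would give was not tested. Mesenchymal cells held 1.08 and 2.46 of the genes at 10000 UMIs, so the 2 classes lay closer in 3CK than in CNT.

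High-MT barcodes carried these genes too. The make-up of these barcodes differed: 214 of 644 in CNT but 13 of 227 in 3CK met the collagen and EPCAM thresholds of the mesenchymal class. COL1A1 read 1417 CPM in CNT and 113 CPM in 3CK high-MT barcodes, and EPCAM 275 and 476 CPM, and the part of this in the ratios was not tested. In these barcodes 7 of the 8 genes were 2-fold or more higher in 3CK, against 12.7% of 17303 genes. CASP8 read 16.7 CPM in CNT from 39 UMIs and 99.7 CPM in 3CK from 140, a log2 ratio of 2.58 (2.06 to 3.13) that was 0.98 when only barcodes over 30% MT- were taken. MLKL read 1.72 CPM from 4 UMIs and 38.5 CPM from 54, a log2 ratio of 4.49 (3.05 to 6.41). RIPK3 held 6 UMIs in CNT but 1 in 3CK. The interval of its log2 ratio of -1.85 ran from -7.38 to 1.19, so its direction was not resolved. By comparison, 19.7% of genes were 2-fold or more lower in these barcodes.

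Levels were also set beside the MT- share of the barcode within each library. These levels are given as non-MT CPM, that is CPM over non-MT UMIs only, for all deposited barcodes. CASP8 read 46.9 at an MT- share of at most 5%, 101 at 5 to 10%, 178 at 10 to 20% and 156 at 20 to 50% in 3CK. In CNT, where the level was lower, CASP8 read 8.69, 20.5, 33.0 and 24.6 in the same ranges. Between at most 5% and 10 to 20%, the log2 ratio of CASP8 was 1.93 (1.79 to 2.06) in 3CK and 1.92 (1.65 to 2.19) in CNT. GSDMB showed 1.81 in 3CK and 2.08 in CNT, CASP10 showed 1.44 and 1.26, and MLKL showed 1.34 and 1.55. These 4 of 8 genes were 2-fold or more higher at 10 to 20% in each library. So were 33.2% of genes with at least 20 non-MT CPM over the barcodes compared, a share not far from 4 of 8. In CNT these 4 genes lay under that level, and in 3CK MLKL and RIPK3 did. The median log2 ratio of all genes with at least 20 non-MT CPM was 0.21 in 3CK and 0.23 in CNT. At 20 to 50% in CNT, CASP10 read 6.70 (3.06 to 12.7) against 5.45 at 5% or less, and MLKL 2.23 (0.461 to 6.53) against 1.41, so for these genes no difference was resolved there.

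CASP1 went the other way in 3CK, from 57.6 non-MT CPM at an MT- share of at most 5% to 23.9 at 10 to 20%, a log2 ratio of -1.27 (-1.63 to -0.93). It was the only one of the 8 that was 2-fold or more lower at 10 to 20% in 3CK, where 22.2% of genes were, and none of the 8 was in CNT, where 16.4% were. In CNT, CASP1 read 4.71 at an MT- share of at most 5%, 12.5 (10.5 to 14.8) at 5 to 10% and 4.85 at 10 to 20%. CASP4 was lower at 10 to 20% in 3CK, with a log2 ratio of -0.56 (-0.75 to -0.37), and GSDMD stayed level there, at 99.02 and 100.5 non-MT CPM. MALAT1, a nuclear RNA, moved with the MT- share: it read 5706 non-MT CPM at an MT- share of at most 5% and 38024 at 10 to 20% in 3CK, and 4645 and 38025 in CNT. Median depth was lower at 10 to 20% than at 5% or less in each library, and the part of nuclear RNA, depth and MT- share in these levels was not tested. The share of barcodes with at least 2 EPCAM UMIs per 10000 was 74.1% at an MT- share of at most 5% and 67.7% at 10 to 20% in 3CK, and 70.2% and 48.1% in CNT.

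**Figure D4:**
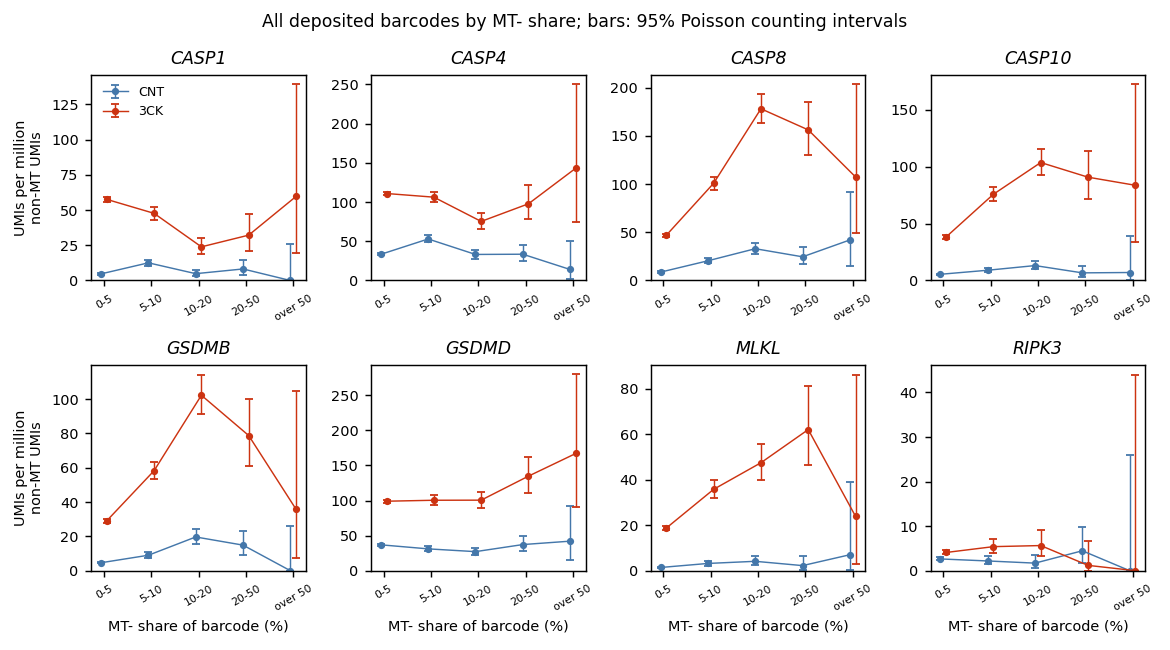
Level of each gene in non-MT CPM (linear axes from 0) in all deposited barcodes of CNT (blue) and 3CK (red), grouped by MT- share, with bars for 95% Poisson counting intervals. In 3CK, CASP8 goes from 46.9 at the lowest share to 178 at 10 to 20%, while CASP1 goes from 57.6 to 23.9.

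Subsets of 3CK epithelium differed by gene. Cells with under 10 TTR UMIs per 10000, 59 in number, were set beside the 515 with at least 100. CASP8 read 84.4 CPM in the low-TTR and 35.4 CPM in the high-TTR cells, a log2 ratio of 1.25 (1.10 to 1.41). GSDMB read 56.2 and 26.0 CPM, and MLKL 29.8 and 14.7 CPM. CASP1 did not follow TTR, at 52.1 and 53.5 CPM. In CNT the low-TTR subset was 22 cells, and CASP8 read 25.9 CPM there against 6.23 CPM in the 1464 high-TTR cells. The same comparison therefore gave a higher CASP8 level outside the liver-type range in each library.

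Epithelial cells of 3CK were also divided by LCN2, an antimicrobial iron-binding protein of inflamed gut, after thinning. CASP4 read 119 CPM in the 315 cells with an LCN2 UMI and 72.7 CPM in the 415 without, a log2 ratio of 0.71 (0.64 to 0.78). CASP1 read 69.2 and 45.6 CPM, a log2 ratio of 0.60 (0.51 to 0.69). CASP8, CASP10 and MLKL differed by less than their counting intervals, with log2 ratios of -0.03, -0.08 and -0.03. The split by CXCL10, an interferon-induced chemokine, parted the 2 inflammatory caspases. Above the median of CXCL10, CASP4 read 114 CPM against 67.7 CPM at or below it, while CASP1 read 50.2 against 63.0 CPM. Cycling epithelial cells of 3CK, 37 with at least 2 UMIs of MKI67 and TOP2A per 10000, read CASP1 at 85.5 CPM and the rest at 55.1 CPM. CASP10 was lower in these cycling cells, at 30.4 against 46.9 CPM.

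The surrounding pathways were described from 11 lists of related genes. In epithelial cells 28 of their 61 genes with at least 1 CPM were 2-fold or more higher in 3CK and 3 were lower, against 8.47% and 12.2% of all genes. In mesenchymal cells 18 of 61 were higher and 4 lower, against 6.04% and 16.7% of all genes. The same shares stand behind the list counts that follow. For reference, 6 of 6 interferon response genes were higher in each class, with an epithelial median log2 ratio of 5.25 and PSMB9, an immunoproteasome subunit, at 8.02. IRF1, GBP1, GBP2 and TAP1 stood at 4.52, 7.12, 3.57 and 5.98.

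Of 6 other caspases tested in epithelial cells, 2 were 2-fold or more higher, CASP5 among them, and the median log2 ratio was 0.04, with a range from -0.39 to 3.26. CASP6 read 61.1 CPM without and 48.6 CPM with cytokines, and CASP9, the apoptosome initiator, read 8.61 and 6.58 CPM. Of the other gasdermins and the membrane rupture protein NINJ1, none of 3 tested passed 2-fold in either direction. GSDME, another pore-forming gasdermin, read 25.7 CPM in CNT and 20.2 CPM in 3CK epithelial cells, NINJ1 read 98.0 and 79.4 CPM, and PJVK 3.18 and 3.61 CPM. GSDMA and GSDMC stayed under 1 CPM. In mesenchymal cells NINJ1 read 67.0 and 114 CPM, a log2 ratio of 0.77.

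Upstream of the initiator caspases, 8 genes of death receptors, their ligands and adapters were tested. In 3CK epithelial cells 4 of the 8 were 2-fold or more higher, and none was lower. TNFSF10, the ligand TRAIL, read 11.7 CPM in CNT and 390 CPM in 3CK, a log2 ratio of 5.06. FAS read 12.9 and 35.4 CPM, TNFRSF10A, a TRAIL receptor, read 5.14 and 13.7 CPM, and TNFRSF25 read 4.45 and 18.0 CPM. FADD, the adapter that carries CASP8 and CASP10 to the receptor, had the smallest ratio of the list, at 17.6 and 23.9 CPM. In mesenchymal cells TNFSF10 and TNFRSF25 passed 2-fold, and FAS read 28.7 and 36.5 CPM.

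Among necroptosis partners, 5 of 8 were 2-fold or more higher in 3CK epithelial cells: ZBP1, TLR3, TICAM1, CYLD and TRAF2. ZBP1, a sensor of Z-form nucleic acid that engages RIPK3, held a single UMI in CNT, or 0.0132 CPM, and 538 in 3CK, or 7.67 CPM. Its log2 ratio of 9.19 had an interval of 6.70 to 14.5. RIPK1 read 22.2 and 36.9 CPM. FAF1 had the smallest ratio in the list, at 56.3 and 57.2 CPM. So ZBP1 and MLKL, on either side of RIPK3 in the pathway, both stood far above their CNT epithelial level, while RIPK3 stood at 1.49-fold.

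Inflammasome sensors and the adapter gave 4 of 6 genes higher in 3CK epithelial cells, with a median log2 ratio of 1.25. AIM2, a sensor of cytosolic DNA, read 2.43 CPM in CNT and 39.1 CPM in 3CK, a log2 ratio of 4.01. IFI16 read 16.5 and 184 CPM, and PYCARD, the adapter ASC that joins sensors to CASP1, read 70.6 and 193 CPM. NLRP1 read 2.83 and 5.83 CPM, and NAIP, the flagellin receptor, read 2.83 and 2.82 CPM. Of the cytokine substrates, IL18 read 118 and 146 CPM in epithelial cells, IL1B 3.14 and 12.6 CPM, and IL33 3.52 and 0.998 CPM. IL1B was higher in mesenchymal than in epithelial cells, at 18.8 CPM without and 633 CPM with cytokines. Kept cells in neither class are left out of these levels. CARD18, another CARD-only relative of CASP1, read 8.77 and 6.22 CPM in epithelial cells, and CARD17 stayed under 1 CPM.

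Of 8 genes that restrain caspases or death receptors, 5 were 2-fold or more higher in 3CK epithelial cells and 3 were not, with a median log2 ratio of 1.26. In mesenchymal cells 4 of 8 passed. BIRC3, an inhibitor of apoptosis induced by NF-kB, read 7.72 CPM in CNT and 159 CPM in 3CK, a log2 ratio of 4.37. CFLAR, the catalytically dead relative of CASP8, read 79.5 and 206 CPM, and TNFAIP3 read 9.44 and 53.2 CPM. SERPINB1, which had the highest mean level of the list, read 169 and 372 CPM, TNFRSF11B, a decoy receptor for TRAIL, read 18.9 and 85.6 CPM, and SERPINB9 had the smallest ratio, at 19.2 and 21.1 CPM.

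In the mitochondrial route, 5 of 11 promoters of apoptosis were 2-fold or more higher in 3CK epithelial cells and BMF was lower, at 4.06 and 1.11 CPM. PMAIP1, the BH3-only protein NOXA, read 9.66 CPM in CNT and 132 CPM in 3CK, a log2 ratio of 3.77. BAK1 read 26.1 and 95.5 CPM, BIK 10.5 and 35.5 CPM, BBC3 15.3 and 46.5 CPM, and BID, which caspase-8 cuts, 41.6 and 89.7 CPM. CYCS, the cytochrome released from mitochondria, read 215 and 238 CPM. Of 5 protectors, BCL2A1 was higher, at 0.316 and 2.05 CPM, and BCL2 lower, at 1.28 and 0.528 CPM, while BCL2L1 read 130 and 240 CPM, MCL1 52.1 and 84.3 CPM, and BCL2L2 8.47 and 9.16 CPM. Of 6 granzyme and perforin genes only GZMM reached 1 CPM in epithelial cells, with 1.87 CPM without and 1.77 CPM with cytokines, while GZMA, GZMB, GZMH, GZMK and PRF1 did not.

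**Figure D5:**
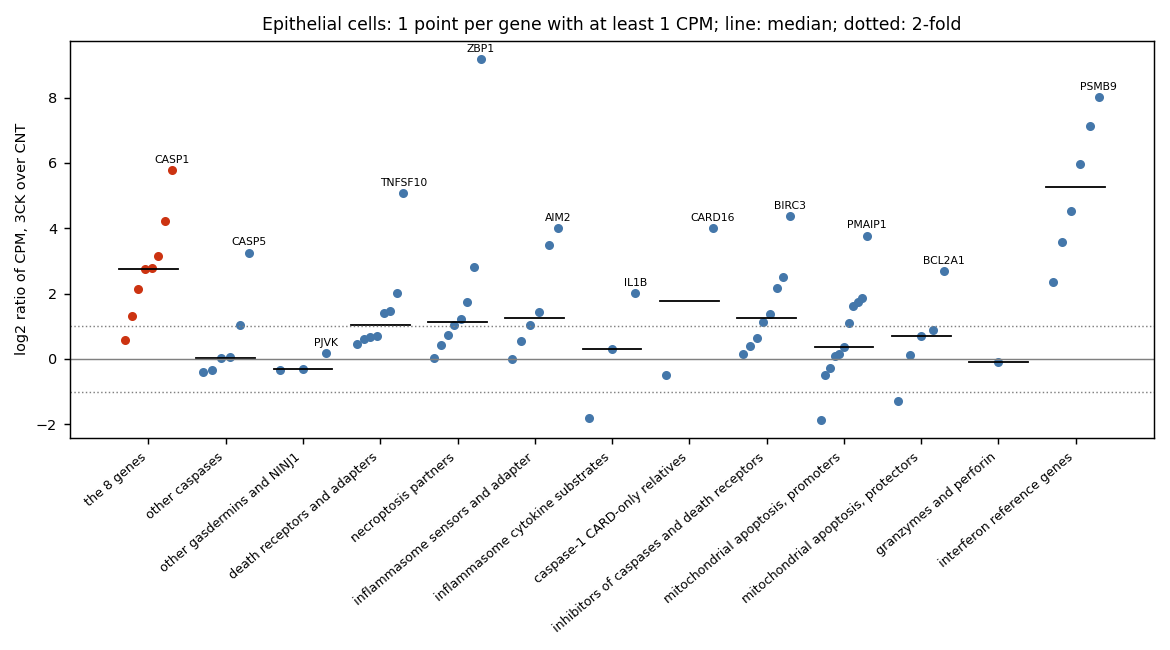
Log2 ratio of CPM, 3CK over CNT, in epithelial cells for the 8 genes (red) and for each related list (blue), 1 point per gene with at least 1 CPM, with a line at each median, dotted lines at 2-fold and the name of the gene with the largest ratio. The 8 genes have a median of 2.76, and the other caspases one of 0.04.

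Genes with the most similar pattern were sought over 6 profiles, namely epithelial, mesenchymal and high-MT sums in each library, among 12482 genes with a mean of at least 5 CPM. Likeness was the Euclidean distance between log2(CPM + 1) values centred on each gene's own mean. Nearest to CASP1 were SOCS1, TGM2 and BST2, at distances of 0.89 to 1.15. CASP4 had CD47 at 0.28, then LIMD2 and CEBPB. CASP8 had ALPK1 at 0.28, then DDX60L and ZNFX1. For CASP10 the nearest were MUC4, TRIM25 and CASP5, and for GSDMB they were DUOX2, FRMD3 and ADCY4. GSDMD lay nearest to C2, SLC25A28 and SPHK1, MLKL to SP110, MX2 and AIM2, and RIPK3 to DEPP1, AC007114.1 and PTPN18. The 6 profiles share 2 libraries and the high-MT sums are small, so these distances are a description only.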

How the data were processed

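About 8300 dissociated cells per library went into 10x Genomics 3' capture (v3.1), per the labels' protocols. The authors deposited raw UMI counts for every gene and barcode. Cell Ranger 7.1.0 made them, per the file headers, and the submitters' processing notes name the build GRCh38. The annotation is not given in the sources used here, and gene positions are from GENCODE v44. No barcode was shared by the libraries.

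Scrublet (scanpy 1.11.5) scored doublets, and the top-scoring 52 CNT and 16 3CK barcodes were dropped, at a rate of 0.8% per 1000 barcodes. The gene minimum removed 412 CNT and 52 3CK barcodes, and MT- share alone 306 and 175. UMIs were summed per library and class and scaled to CPM by all UMIs. Sums have exact Poisson intervals, ratios an exact binomial interval computed from the 2 counts, and cell shares Clopper-Pearson intervals. Where a library had none, 3 UMIs were used as its floor, and 2-fold among genes that reached 1 CPM in a library stands in for a call. Scaling alternatives used TMM factors from edgeR 4.0.16. Ratios were checked on simulated counts, and thinning on a part of the CNT barcodes.

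The 8 genes, the lists and the markers were chosen with earlier results of these data known. Text names all 8 genes, in each list (for epithelial cells) the highest mean level and the largest and smallest ratio, every gene of lists of 6 or fewer, and, chosen after values were seen, most genes that make up a count of 5 or fewer, members of the same pair or family, and IFI16, PYCARD, RIPK1 and FAS as known partners. One list gene, CASP12, was not analysed here, and some list genes are not reported here.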

Additional observations from a re-analysis of the deposited data

How the results depend on the processing

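The number of the 8 genes at 2-fold or more higher in 3CK stayed at 7 in epithelial and in all kept cells under each alternative tried at that threshold (other scalings, equal cell weight, cell filters, doublet removal, class thresholds). In mesenchymal cells the count ran from 4 to 6, with 6 under TMM scaling, which moved the median of all genes by 0.18 (log2). At 1.5-fold, an alternative planned for the lists alone, RIPK3 would also pass over all kept cells, at 1.70-fold, and all 8 genes in mesenchymal cells. In high-MT barcodes the count was 6 with MT- share over 30%. Of the single values, 226 moved by less than their counting interval and 38 by more. The epithelial log2 ratio of CASP1 ran from 5.61 to 7.45. With equal cell weight, GSDMB in mesenchymal cells was -0.76 and MLKL 3.85. With MT- share over 30%, CASP8 was 0.98 and CASP10 2.19. CASP10 in mesenchymal cells was 0.03 with EPCAM at 0. The cause was not tested. No paired analysis was possible because there is 1 library per group. Depth limits RIPK3 and GSDMB in mesenchymal cells and all genes in high-MT barcodes.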
